A study of Mus musculus with 7 samples.

Results

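The 9 genes described here encode the short chain of proteins through which leukaemia inhibitory factor (LIF) and ciliary neurotrophic factor (CNTF) reach the nucleus: the ligands *Lif* and *Cntf*, the receptor genes *Lifr*, *Il6st* and *Cntfr*, the kinases *Jak1* and *Jak2*, the transcription factor *Stat3* and the feedback inhibitor *Socs3*. They were taken by name for their place in this chain, and all 9 were found by Ensembl identifier among the 38124 genes of the count table. RNA-seq had been performed on embryonic mouse neocortex of the *Tis21*-CreERT2 line, in which *Tis21* drives a tamoxifen-inducible Cre in apical progenitors that generate basal progenitors (BPs) and in their progeny. Every embryo received tamoxifen and was electroporated *in utero* at E13.5. The 3 control libraries came from cortices given a construct for conditional nuclear RFP alone, and the 4 libraries labelled Sox9 from cortices given the same kind of construct with Sox9 added. Cells were collected at E15.5, 48 hr later, and sorted for high RFP fluorescence; each sort pooled cortices of several embryos according to the methods, and the labels call each library a biological replicate. P-values below therefore measure the spread between such pools.

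LIF binds its own receptor LIFR, which pairs with gp130, the product of *Il6st* that all cytokines of the interleukin-6 family share. CNTF first binds the membrane-anchored CNTFR and then the same LIFR and gp130 pair. The receptors have no kinase of their own: bound JAK1, JAK2 and TYK2 phosphorylate them and then STAT3, which dimerizes and enters the nucleus, and STAT3 induces *Socs3*, whose protein blocks gp130 and the kinases. In the developing cortex the pathway is known for maintaining radial glia and, later, for switching on astrocyte genes such as *Gfap* and *S100b*. Phosphorylation, the active step, is not measured by RNA-seq.

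Total counts ran from 4429704 to 12907778 per library, with a median of 11592511 for control and 7428918 for the Sox9-labelled libraries, so low levels were measured less precisely in the latter. The *Sox9* gene itself had no higher mRNA level in the libraries that carry its name: it was at 34.6, 89.2 and 67.9 CPM in control libraries 1, 2 and 4, and at 50.8, 41.1, 31.0 and 37.1 CPM in Sox9-labelled libraries 1 to 4. Its log2 fold change was -0.68 with a standard error (SE) of 0.25 (adjusted p = 0.0493, edgeR's quasi-likelihood test with Benjamini-Hochberg adjustment over 16522 genes), and the group names below are therefore those of the labels. Every direction given below rests on these labels, and the reason for the *Sox9* level was not tested. CPM, the counts of a gene scaled to a common library size, used library sizes normalized by TMM throughout, and a gene was called at an adjusted p under 0.01.

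Markers of the labelled cell type were present in all libraries, but the sorted cells were rich in neuronal mRNA: 11 neuron markers summed to 14323 to 17920 CPM in control and 13206 to 15408 CPM in Sox9-labelled libraries, led by *Tubb3* (6965 CPM on average) and *Neurod6* (3918 CPM), with none of the 11 called. The 10 radial glia markers, led by *Fabp7* and *Slc1a3*, summed to 676 to 1230 CPM in control and 347 to 498 CPM in Sox9-labelled libraries, with 5 called lower. The 8 markers listed for intermediate progenitors were led by *Elavl4*, also known from newborn neurons (381 CPM on average), and *Btg2* (71.8 CPM), and summed to 690 to 763 and 441 to 572 CPM, with 3 called lower. The 10 astrocyte markers, led by *Aldoc* and *Sparcl1*, summed to 264 to 489 and 118 to 142 CPM, with 4 called lower and 2 higher. Oligodendrocyte precursor markers (13.2 to 17.3 against 26.6 to 39.7 CPM, 4 of 7 tested called higher) and endothelial markers (6.98 to 14.7 against 21.4 to 52.1 CPM, 2 of 8 tested called higher, led by *Flt1* and *Pecam1*, *Ly6c1* at 0 in every control) were the lists with higher sums that did not overlap between groups. For each of these 5 shifted lists the exact permutation p was 0.0286, the smallest that 35 splits of 7 libraries can give, or 0.0514 after adjustment over 9 lists. Microglia (12.0 to 41.1 against 20.6 to 74.0 CPM, 1 of 10 called higher, led by *Csf1r* and *P2ry12*, p = 0.429 by the exact permutation test), erythroid (2.20 to 24.9 against 15.0 to 94.8 CPM, 1 of 6 tested called higher, led by *Hbb-bs* and *Hba-a1*) and mural and meningeal sums (23.8 to 30.01 against 28.7 to 45.2 CPM, 1 of 9 tested called higher, led by *Igfbp2* and *Rgs5*) overlapped between groups. The part of these shifts in the results below was not tested, and in such bulk libraries fewer cells of a type and less RNA per cell cannot be told apart.

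Of the 9 genes, 7 had enough counts to be tested, and 1 of them, *Lifr*, was called higher in the Sox9-labelled libraries, while none was called lower by edgeR or DESeq2 and 0 had an unadjusted p under 0.05 in that direction. Over all 16522 genes tested, 11.3% were called higher and 3.43% lower. Point estimates lay above 0 for 6 of the 7 genes and below 0 for *Socs3*, with a median log2 fold change of 0.35, beside a median of 0.0 over all genes tested. Without the Sox9-labelled libraries *Cntfr* would not have passed the filter on low counts, so its place among the 7 is not independent of its direction. In 3 of the 7, *Lifr*, *Cntfr* and *Stat3*, every Sox9-labelled library lay above every control library, an arrangement that 22.9% of all genes tested showed; the reverse, with every Sox9-labelled library below every control, held for 16.4%, and either for 39.3%.

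Fold changes in these data depended on the level of a gene, so each gene is set beside genes of similar abundance. The average was taken over all 7 libraries, so a rise in the Sox9-labelled group itself lifts a gene towards a higher class. Among genes with an average log2 CPM over 6, the median log2 fold change was -0.26 and 0.600% were called higher. Between 3 and 6 the median was -0.14 and 3.24% were called higher. Between 1 and 3 the median was 0.62 and 22.8% were called higher, and below 1 the median was 1.55. *Lifr* falls in the top class, *Jak1*, *Jak2* and *Stat3* in the next, and *Il6st*, *Cntfr* and *Socs3* in the class between 1 and 3.

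**Figure D1:**
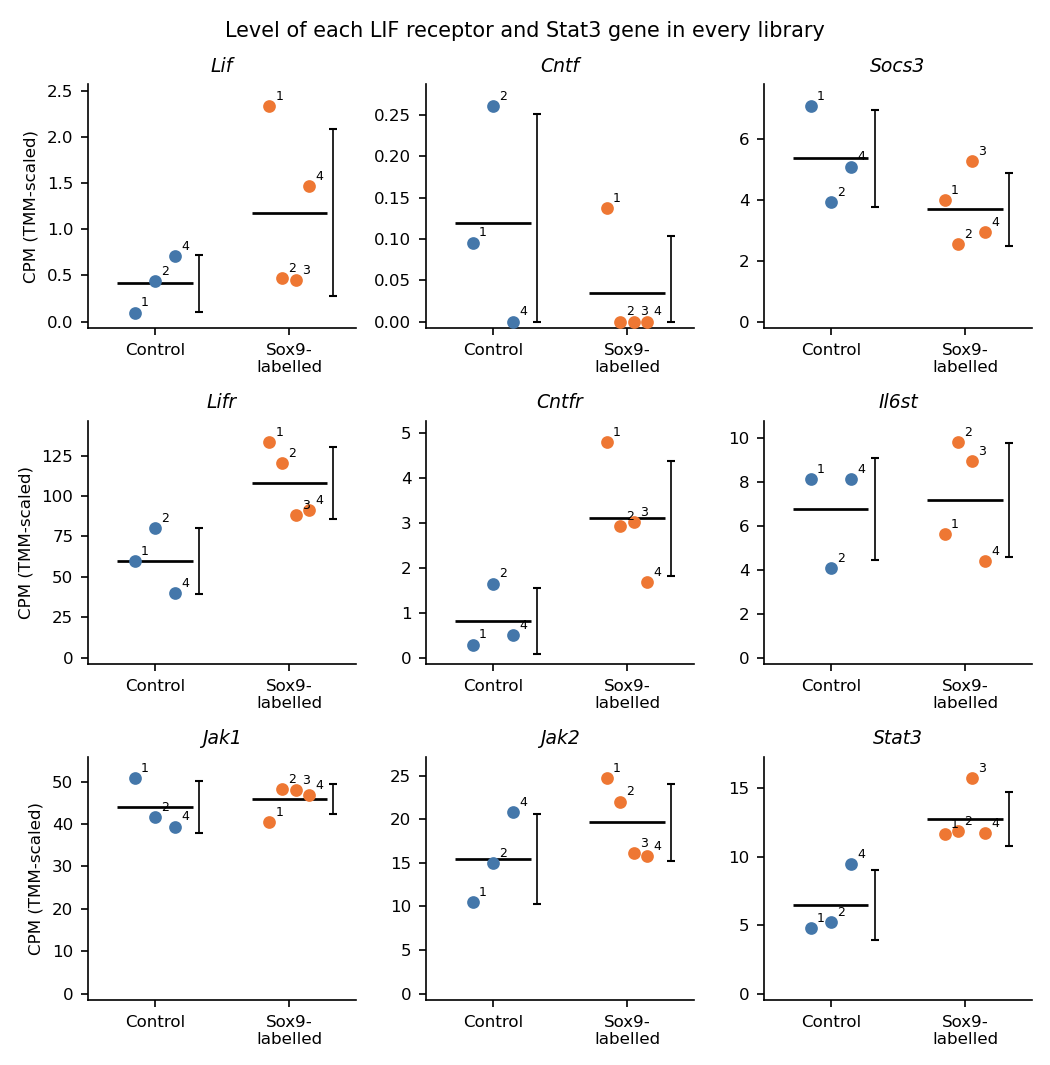
CPM (TMM-scaled, linear axis) of the 9 genes in each of the 3 control (blue) and 4 Sox9-labelled libraries (orange). Points are libraries with their replicate number, horizontal lines are group means, and vertical bars are 1 SD on either side, ended at 0. The groups are separated for *Lifr*, *Cntfr* and *Stat3* and overlap in the other 6 panels.

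*Lifr* (ENSMUSG00000054263, forward strand, chr15:7090614-7197489 of GRCm38) encodes the signalling receptor chain that LIF and CNTF share. Counts of 624, 920 and 390 in control libraries 1, 2 and 4 corresponded to 59.6, 79.9 and 39.7 CPM, and counts of 971, 1271, 787 and 434 in Sox9-labelled libraries 1 to 4 to 133, 120.1, 88.0 and 91.0 CPM. Libraries 1 and 2 of the Sox9-labelled group were the highest, and the lowest of that group lay above the highest control, control 2. *Lifr* rose 1.81-fold, from 59.8 ± 20.1 CPM (SD, n = 3) to 108 ± 22.2 CPM (SD, n = 4), a log2 fold change of 0.86 with an SE of 0.21 (adjusted p = 0.00789, edgeR's quasi-likelihood test with Benjamini-Hochberg adjustment). In its own class of abundance the upper quartile of the log2 fold change was -0.13, so *Lifr* moved against the general direction of abundant genes. By its control mean alone it would fall in the class between 3 and 6, where the upper quartile was 0.10.

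The *Lifr* call was close to the threshold and rested on single libraries. Leaving out control 1, control 4, Sox9-labelled 1 or Sox9-labelled 2 in turn ended it, with adjusted p-values of 0.0224, 0.0272, 0.0193 and 0.0214, while the log2 fold change stayed between 0.65 and 1.13 over all 7 fits with a library left out. It held under the 8 other settings of normalization, filter, tool and replicate block that were run.

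RefSeq (GRCm38.p6) gives 2 promoter entries for *Lifr*, both inside the gene span above. The 250 bases before the downstream start are printed here because they hold a core letter sequence of the kind Sox factors are known to bind, and because *Lifr* is the gene called. The 3 letter sequences searched on both strands in the 15 upstream windows of the 9 genes were ACAATG and ACAAAG, known as Sox-type cores, and TTCNNNGAA, the palindrome known from Stat binding; none of the matches printed overlaps another. The downstream *Lifr* window (chr15:7140292-7140541, forward strand) overlaps no GENCODE exon, and the capitals mark ACAATG read on the opposite strand.
*Lifr* downstream start: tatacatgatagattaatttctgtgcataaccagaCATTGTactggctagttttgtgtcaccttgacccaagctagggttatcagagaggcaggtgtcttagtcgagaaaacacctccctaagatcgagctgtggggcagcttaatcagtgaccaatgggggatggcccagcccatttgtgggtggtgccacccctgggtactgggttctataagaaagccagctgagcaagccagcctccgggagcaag
Over 32851 windows of the same length, 10.7% held ACAATG on either strand, so the match is a description and not a site. Besides *Lifr*, the window of *Cntf* held it.

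*Cntfr* (ENSMUSG00000028444, reverse strand, chr4:41657498-41697089) encodes the CNTF-binding receptor subunit and was rare. The control libraries held 3, 19 and 5 counts, or 0.287, 1.65 and 0.509 CPM. The Sox9-labelled libraries held 35, 31, 27 and 8 counts, or 4.81, 2.93, 3.02 and 1.68 CPM. Control 2 lay just below Sox9-labelled 4, so the groups were separate by a narrow margin. The means were 0.815 ± 0.732 CPM (SD, n = 3) and 3.11 ± 1.29 CPM (SD, n = 4), with a log2 fold change of 1.90 and an SE of 0.57, and the gene was not called (adjusted p = 0.0202, edgeR's quasi-likelihood test with Benjamini-Hochberg adjustment). The estimate depended on control 2, without which it was 2.94 (adjusted p = 0.00593 in the same test), and on scaling, since cyclic loess normalization with limma gave 0.78 (adjusted p = 0.332). Genes of its class of abundance had an upper quartile of 1.63. By its control mean alone *Cntfr* would fall in the class under 1, where the upper quartile was 2.24.

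*Il6st* (ENSMUSG00000021756, forward strand, chr13:112464070-112510086), the gene of gp130, was at 8.12, 4.08 and 8.14 CPM in control libraries 1, 2 and 4. It was at 5.63, 9.83, 8.94 and 4.40 CPM in Sox9-labelled libraries 1 to 4. The groups were intermixed, with control 2 lowest and Sox9-labelled 2 highest. Means were 6.78 ± 2.34 CPM (SD, n = 3) and 7.20 ± 2.60 CPM (SD, n = 4), with a log2 fold change of 0.12 and an SE of 0.34 (adjusted p = 0.818, edgeR's quasi-likelihood test with Benjamini-Hochberg adjustment). Its sign turned under cyclic loess and when control 2 or Sox9-labelled 2 was left out, so no direction is given.

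The ligand genes were at the limit of detection. *Lif* (ENSMUSG00000034394, forward strand, chr11:4257557-4272514) had 1, 5 and 7 reads counted in control, while Sox9-labelled libraries 1 to 4 had 17, 5, 4 and 7, or 0.0956, 0.434 and 0.712 against 2.33, 0.472, 0.447 and 1.47 CPM. Sox9-labelled 1 and 4 lay above every control and 2 and 3 within the control range. The means of 0.414 ± 0.309 CPM (SD, n = 3) and 1.18 ± 0.905 CPM (SD, n = 4) were not tested, because the filter on low counts removed the gene.

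*Cntf* (ENSMUSG00000079415, reverse strand, chr19:12763660-12765632) had 1, 3 and 0 reads counted in control libraries 1, 2 and 4, and 1, 0, 0 and 0 in Sox9-labelled libraries 1 to 4. At 0 counts the floor of 3 counts allows up to 0.305 CPM in control 4 and up to 0.282, 0.334 and 0.627 CPM in Sox9-labelled 2, 3 and 4, so a difference was not detectable at this depth. GENCODE places 847 of the 1073 exon bases of *Cntf*, or 78.9%, on the same strand in exons of *Zfp91*, whose reads cannot be told apart from those of *Cntf* there.

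*Jak1* (ENSMUSG00000028530, reverse strand, chr4:101152367-101265282), the kinase on which gp130 chiefly relies, was at 50.8, 41.7 and 39.4 CPM in control and at 40.5, 48.2, 48.1 and 46.8 CPM in the Sox9-labelled libraries. Every Sox9-labelled library lay within the control range. The means of 44.0 ± 6.07 CPM (SD, n = 3) and 45.9 ± 3.64 CPM (SD, n = 4) gave a log2 fold change of 0.06 with an SE of 0.15 (adjusted p = 0.775, edgeR's quasi-likelihood test with Benjamini-Hochberg adjustment), which was -0.02 with DESeq2.

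*Jak2* (ENSMUSG00000024789, forward strand, chr19:29251828-29313080), the second of the kinases, was at 10.5, 14.9 and 20.9 CPM in control and at 24.7, 22.0, 16.1 and 15.7 CPM in the Sox9-labelled libraries. Sox9-labelled 1 and 2 lay above every control, and 3 and 4 within the control range. The means were 15.4 ± 5.19 CPM (SD, n = 3) and 19.6 ± 4.45 CPM (SD, n = 4), with a log2 fold change of 0.35 and an SE of 0.25 (adjusted p = 0.289, edgeR's quasi-likelihood test with Benjamini-Hochberg adjustment), and the estimate stayed between 0.13 and 0.64 over 15 alternatives.

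*Stat3* (ENSMUSG00000004040, reverse strand, chr11:100885098-100939540), the transcription factor that carries the signal, had 50, 60 and 93 counts in control libraries 1, 2 and 4, or 4.78, 5.21 and 9.46 CPM. It had 85, 126, 141 and 56 counts in Sox9-labelled libraries 1 to 4, or 11.7, 11.9, 15.8 and 11.7 CPM. Control 4 stood closest to the Sox9-labelled group and Sox9-labelled 3 furthest from control, and no library of one group lay among those of the other. Means were 6.48 ± 2.59 CPM (SD, n = 3) and 12.8 ± 2.00 CPM (SD, n = 4), with a log2 fold change of 0.98 and an SE of 0.28. The adjusted p of 0.0155 (edgeR's quasi-likelihood test with Benjamini-Hochberg adjustment) missed the threshold. Without control 4 the estimate was 1.37 and the gene was called, whereas without control 1 or control 2 it was 0.79 and 0.84 (adjusted p = 0.00505, 0.0584 and 0.0691 in the same test). The upper quartile of genes in its class of abundance was 0.10. By its control mean alone *Stat3* would fall in the class between 1 and 3, where the upper quartile was 1.63.

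The 3′ ends of *Stat3* and *Stat5a* face each other and share 72 exon bases on opposite strands, 0.756% of the exon bases of *Stat3*, and the sources used here do not state whether reads were counted by strand. The window of 250 bases before the *Stat3* start (chr11:100939541-100939790, reverse strand, RefSeq GRCm38.p6) is printed as that of the family's effector. It overlaps no GENCODE exon, and its capitals mark ACAAAG, which 16.5% of the 32851 windows held on either strand.
*Stat3* upstream window: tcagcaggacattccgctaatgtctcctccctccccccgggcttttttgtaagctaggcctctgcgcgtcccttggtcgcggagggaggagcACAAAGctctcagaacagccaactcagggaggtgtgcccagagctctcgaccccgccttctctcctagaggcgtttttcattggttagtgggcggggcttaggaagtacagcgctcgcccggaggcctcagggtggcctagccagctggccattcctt
No TTCNNNGAA lies in this window.

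*Socs3* (ENSMUSG00000053113, reverse strand, chr11:117966079-117970047), the feedback inhibitor induced by STAT3, was at 7.07, 3.91 and 5.09 CPM in control and at 3.98, 2.55, 5.25 and 2.94 CPM in the Sox9-labelled libraries. Control 1 was the highest, and Sox9-labelled 2 and 4 lay below every control. Means were 5.36 ± 1.60 CPM (SD, n = 3) and 3.68 ± 1.21 CPM (SD, n = 4), with a log2 fold change of -0.53 and an SE of 0.35 (adjusted p = 0.262, edgeR's quasi-likelihood test with Benjamini-Hochberg adjustment). The estimate stayed below 0 in all 15 alternatives, from -0.97 to -0.30, and passed the threshold in none of them. Genes of its class of abundance had a lower quartile of -0.08.

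Of the 15 windows, the one of *Socs3* held the Stat-type palindrome, and 30 bases around it (chr11:117969502-117969531, reverse strand, RefSeq GRCm38.p6) are printed for that reason. The capitals mark TTCNNNGAA, which starts 154 bases before the RefSeq start. Of the 250 bases of the whole *Socs3* window, 77 lie in GENCODE exons.
*Socs3* stretch: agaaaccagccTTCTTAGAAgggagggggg
TTCNNNGAA occurred in 7.02% of the 32851 windows, and this match too is a description and not a site. The *Socs3* window also held ACAAAG, outside the stretch printed.

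**Figure D2:**
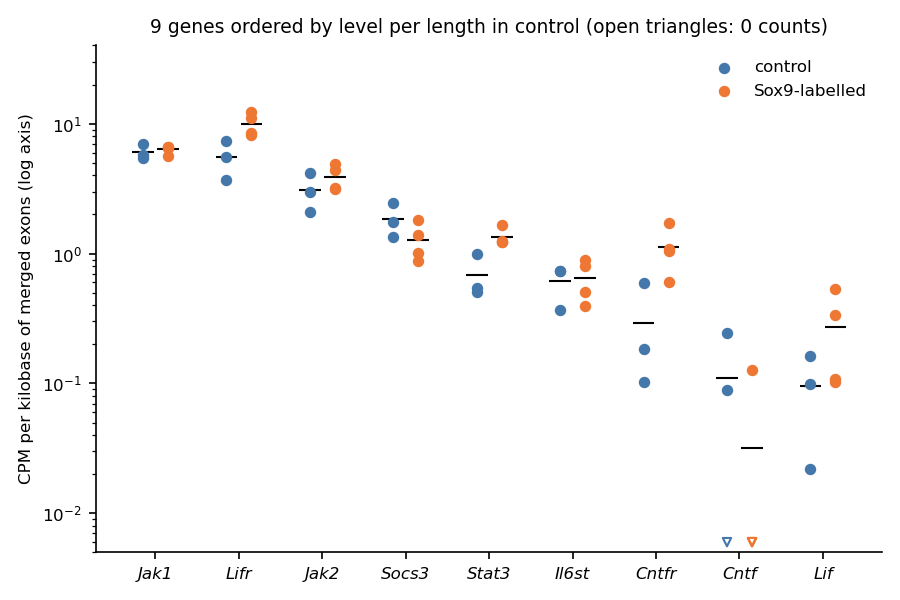
CPM per kilobase of merged exons on a log axis for the 9 genes, ordered from left to right by their mean in control (blue, 3 libraries), with the Sox9-labelled libraries (orange, 4 libraries) beside them. Lines are group means and open triangles at the bottom are libraries with 0 counts. *Jak1* and *Lifr* lead in both groups, and *Cntf* and *Lif* are last in both.

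To compare levels between genes, CPM were divided by the length of the merged exons in kilobases. In control, *Jak1* (6.08 ± 0.839 CPM per kilobase, SD, n = 3) and *Lifr* (5.54 ± 1.87) were the most abundant, followed by *Jak2* (3.07 ± 1.03) and *Socs3* (1.85 ± 0.553). *Stat3* (0.681 ± 0.271), *Il6st* (0.611 ± 0.211) and *Cntfr* (0.293 ± 0.263) were lower, and *Cntf* (0.111 ± 0.123) and *Lif* (0.0952 ± 0.0710) were last. The ranges of neighbours in this order overlapped, except those of *Socs3* and *Stat3*.

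In the Sox9-labelled libraries *Lifr* came first at 10.03 ± 2.06 CPM per kilobase (SD, n = 4), above *Jak1* at 6.35 ± 0.503 and *Jak2* at 3.90 ± 0.884, and the ranges of these 3 did not overlap. *Stat3* (1.34 ± 0.210), *Socs3* (1.27 ± 0.419) and *Cntfr* (1.12 ± 0.463) followed with overlapping ranges, the first of them below the range of *Jak2*, then *Il6st* (0.649 ± 0.234), *Lif* (0.271 ± 0.208) and *Cntf* (0.0320 ± 0.0640), whose ranges also overlapped with their neighbours. The mRNA of *Lifr* thus outnumbered that of its partner *Il6st* per kilobase in every library, by 7.56, 20.2 and 5.02 times in control 1, 2 and 4 and by 24.4, 12.6, 10.1 and 21.3 times in Sox9-labelled 1 to 4. Control 2 lay within the range of the Sox9-labelled libraries in this ratio. How the reads were assigned to exons and introns is not given in the sources used here, and a count that includes introns would change these per-length levels.

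**Figure D3:**
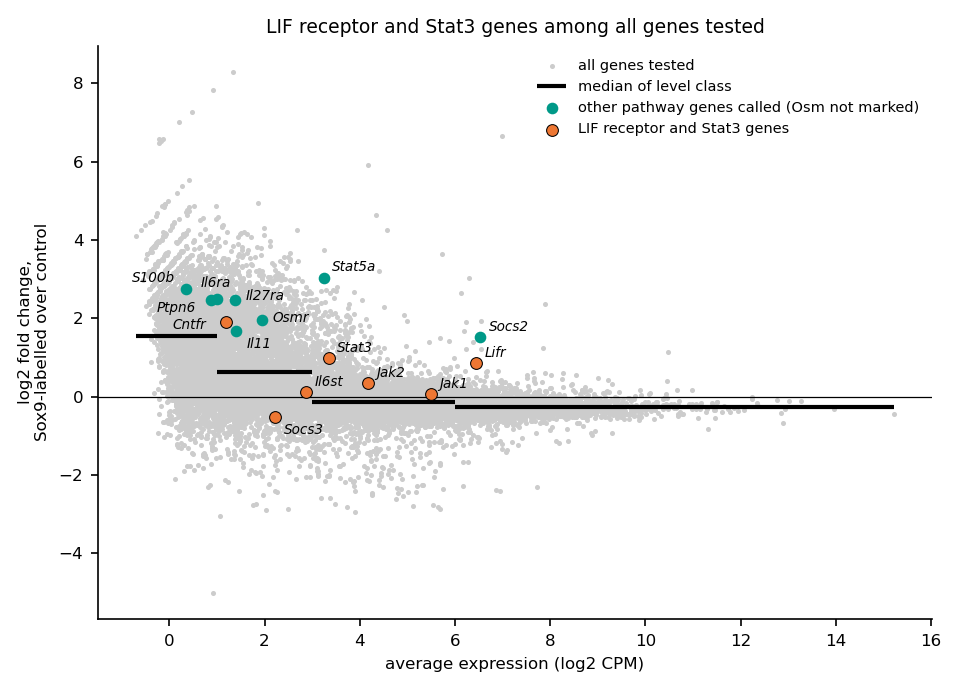
Log2 fold change (Sox9-labelled over control) against average log2 CPM for all 16522 genes tested (grey), the 7 tested LIF receptor and Stat3 genes (orange) and 8 called genes of the wider pathway (green), with the median of each class of abundance as a black bar. The bars fall from 1.55 to -0.26 as abundance rises. *Il6st* and *Socs3* lie below the bar of their class, and the other marked genes lie above it. Fitted fold changes of genes without counts in control depend on the prior count, which is why *Osm* is not marked.

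The wider pathway was described by 60 further genes, of which 43 were tested and 9 were called higher and none lower, beside 11.3% and 3.43% of all genes tested. Of the 9, 7 (*Osm*, *Il11*, *Il6ra*, *Osmr*, *Il27ra*, *Ptpn6* and *S100b*) passed the filter on low counts only through the Sox9-labelled libraries, a route that favours genes higher there, and their number is not read as a result. These 7 were also rare: 3 had an average log2 CPM under 1, a class in which 20.6% of genes were called higher (median 1.55 on the log2 scale), and 4 lay between 1 and 3, where 22.8% were called higher with a median of 0.62 and an upper quartile of 1.63. *Stat5a* and *Socs2* passed the filter in the control libraries as well, in classes where 3.24% and 0.600% were called higher. By their control means alone, 1.85 and 44.7 CPM, each would fall in a lower class, where a larger share was called higher. Over all 43 tested genes the median was 0.12 on the log2 scale, with 23 estimates above 0 and 20 below. In the lower direction, 4 had an unadjusted p under 0.05, and DESeq2 called 2 of them.

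Among other cytokines that signal through gp130, *Il11* (interleukin-11) and oncostatin M (*Osm*) passed the filter only through the Sox9-labelled libraries, so their values too describe each gene. *Osm* was counted in 3 of the 4 Sox9-labelled libraries and in no control. *Il11* was at 1.15, 0.782 and 1.42 CPM in control and at 2.75, 3.31, 4.92 and 3.36 CPM in the Sox9-labelled libraries, without overlap (log2 fold change 1.68, SE 0.42, adjusted p = 0.00858, edgeR's quasi-likelihood test with Benjamini-Hochberg adjustment). The *Il11* call was lost in all 7 fits with a library left out, with adjusted p-values from 0.0117 to 0.0389. *Osm* had 0 counts in each control and 14, 28, 31 and 0 counts in Sox9-labelled 1 to 4. Against a floor of 3 counts per control library, which averages 0.284 CPM, its mean of 2.01 CPM was at least 7.08-fold higher (adjusted p = 0.0031 in the same test, 0.0145 with DESeq2). Without Sox9-labelled 1, 2 or 3 it did not pass the filter and could not be tested. In Sox9-labelled 4 the 0 allows up to 0.627 CPM, below the 1.92, 2.65 and 3.47 CPM of the other Sox9-labelled libraries. *Ebi3*, the other abundant cytokine gene, had a log2 fold change of 1.07 (SE 0.41, adjusted p = 0.0562, edgeR's quasi-likelihood test with Benjamini-Hochberg adjustment), and 6 of the 10 cytokine genes were too rare to test.

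The receptor genes *Osmr*, *Il27ra* and *Il6ra* passed the filter on low counts only through the Sox9-labelled libraries, as stated above, and their values are given as a description of each gene. *Osmr*, the oncostatin M receptor, was at 1.72, 0.956 and 1.63 CPM in control and at 5.49, 4.54, 7.04 and 5.03 CPM in the Sox9-labelled libraries (log2 fold change 1.95, SE 0.37, adjusted p = 0.00218, edgeR's quasi-likelihood test with Benjamini-Hochberg adjustment). All Sox9-labelled values were above the highest control. *Il27ra*, the interleukin-27 receptor, went from 0.685 ± 0.153 CPM (SD, n = 3) to 3.84 ± 0.621 CPM (SD, n = 4), with a log2 fold change of 2.47 (SE 0.42, adjusted p = 0.00114, edgeR's quasi-likelihood test with Benjamini-Hochberg adjustment). *Il6ra*, the interleukin-6 receptor, went from 0.501 ± 0.237 CPM (SD, n = 3) to 2.84 ± 1.48 CPM (SD, n = 4), with a log2 fold change of 2.49 (SE 0.56, adjusted p = 0.00532, edgeR's quasi-likelihood test with Benjamini-Hochberg adjustment). *Il11ra1*, the receptor of interleukin-11 and the most abundant of the 4 tested, was at 5.003 ± 0.386 and 5.41 ± 0.762 CPM in the same groups (log2 fold change 0.12, SE 0.28, adjusted p = 0.781, edgeR's quasi-likelihood test with Benjamini-Hochberg adjustment). *Il6ra* lost its call without control 2, control 4, Sox9-labelled 1 or Sox9-labelled 3, at adjusted p-values of 0.02, 0.0189, 0.0147 and 0.0126, and *Osmr* without control 2, at 0.0104.

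The ligand and receptor genes of LIF and oncostatin M are neighbours in the mouse genome. *Osm* lies 16.5 kb from *Lif* on chromosome 11 and *Osmr* 215.6 kb from *Lifr* on chromosome 15, with 0 protein-coding genes between the members of each pair. *Lifr* passed the filter in the controls and was called higher, *Lif* was too rare to test, and the oncostatin M genes passed the filter only through the Sox9-labelled libraries, so no pattern is read from the pairs.

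**Figure D4:**
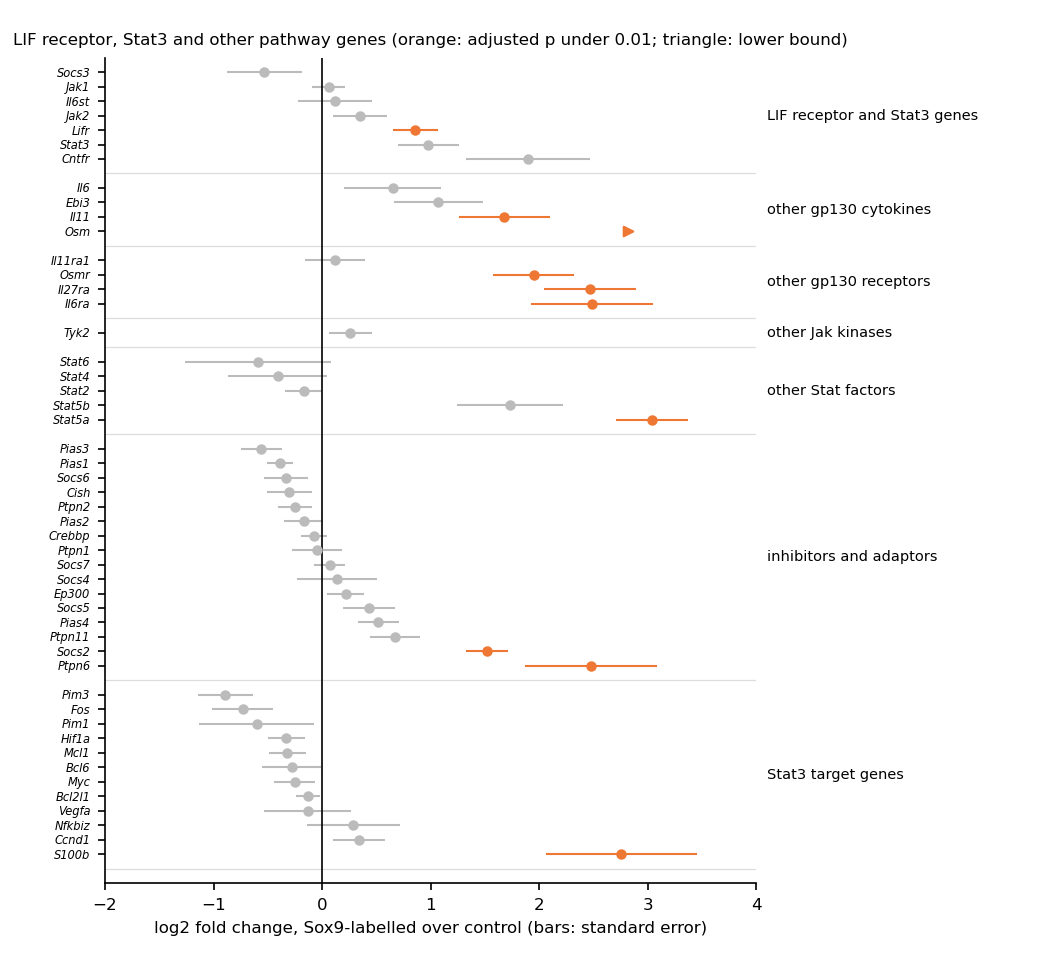
Log2 fold change (Sox9-labelled over control, points) with 1 SE on either side (bars) for the 7 tested LIF receptor and Stat3 genes and for tested genes of the wider pathway, grouped by role. Orange marks an adjusted p under 0.01, and the triangle is the lower bound for *Osm*. Of the 9 orange genes of the wider pathway, *Stat5a* and *Socs2* passed the filter on low counts in control, and the other 7 only through the Sox9-labelled libraries.

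Among the other Stat genes, only *Stat5a* was called. *Stat5a* was at 1.24, 1.56 and 2.75 CPM in control and at 18.4, 11.5, 17.7 and 13.2 CPM in the Sox9-labelled libraries, a wide gap between the groups. Its means of 1.85 ± 0.792 CPM (SD, n = 3) and 15.2 ± 3.36 CPM (SD, n = 4) gave a log2 fold change of 3.04 with an SE of 0.33 (adjusted p = 5.6e-05, edgeR's quasi-likelihood test with Benjamini-Hochberg adjustment). The gene, which encodes a factor activated by prolactin, growth hormone and several cytokines, lies between *Stat5b* and *Stat3*, 8626 bases from the former. *Stat5b*, named after its values were seen, passed the filter only through the Sox9-labelled libraries, so its values are a description of the gene. It had a log2 fold change of 1.73 (SE 0.49, adjusted p = 0.0158, edgeR's quasi-likelihood test with Benjamini-Hochberg adjustment) at 1.20 ± 0.674 against 3.97 ± 1.54 CPM. The sequences of the STAT5 genes are near copies, so that reads could be split between them. *Stat2* (40.9 ± 2.80 against 36.5 ± 7.33 CPM), the most abundant Stat gene, was not called, with a log2 fold change of -0.17 (SE 0.17).

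The remaining kinases gave no call. *Tyk2*, which also binds gp130, was at 19.9 ± 3.04 CPM (SD, n = 3) and 23.9 ± 4.57 CPM (SD, n = 4), with a log2 fold change of 0.26 (SE 0.20, adjusted p = 0.331, edgeR's quasi-likelihood test with Benjamini-Hochberg adjustment). *Jak3*, known from lymphoid cells, was at 0.288 ± 0.208 and 0.851 ± 0.385 CPM in the same groups and was not tested.

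Of the inhibitors and adaptors, *Socs2* rose, *Ptpn6* was called after passing the filter only through the Sox9-labelled libraries, 14 others passed it without a call, and the median of the list was 0.01. *Socs2*, an inhibitor of growth hormone and STAT5 signalling of the same family as *Socs3*, was at 54.9, 38.5 and 40.8 CPM in control and at 153, 110.0, 96.7 and 155 CPM in the Sox9-labelled libraries. The lowest of the latter was well above the highest control, and the log2 fold change was 1.52 with an SE of 0.19 (adjusted p = 0.000154, edgeR's quasi-likelihood test with Benjamini-Hochberg adjustment). *Ptpn6*, a phosphatase known chiefly from blood cells, went from 0.452 ± 0.449 CPM (SD, n = 3) to 2.61 ± 0.942 CPM (SD, n = 4), with a log2 fold change of 2.48 (SE 0.61, adjusted p = 0.00828, edgeR's quasi-likelihood test with Benjamini-Hochberg adjustment). It was called in 2 of 7 fits with a library left out, without control 2 and without Sox9-labelled 4, and the adjusted p reached 0.0282 in the others. The highest *Ptpn6* level, Sox9-labelled 1 at 3.71 CPM, was in the library that also had the highest microglia sum (74.0 CPM). The next highest sum was that of control 2 (41.1 CPM), where *Ptpn6* was at 0.956 CPM, below every Sox9-labelled library. The part of microglia in the *Ptpn6* level was not tested. *Pias1*, which encodes a SUMO ligase and was the most abundant of the list, was at 183 ± 12.7 CPM in control and 139.8 ± 14.4 CPM in the Sox9-labelled libraries (log2 fold change -0.39, SE 0.12, adjusted p = 0.022, edgeR's quasi-likelihood test with Benjamini-Hochberg adjustment).

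The known targets of STAT3 did not share a direction. Of 20, 12 were tested, with 3 estimates above 0 and 9 below, a median of -0.26 and 1 call, higher (8.33%). Over all genes tested, 11.3% were called higher. The class medians were -0.14 between 3 and 6 and -0.26 over 6, so these counts are not read as a result about the targets. That call was *S100b*, a gene of astrocytes and oligodendrocyte precursors that passed the filter only through the Sox9-labelled libraries, at 0.0956, 0.0869 and 0.610 CPM in control and at 3.30, 1.42, 1.12 and 1.47 CPM in the Sox9-labelled libraries (log2 fold change 2.76, SE 0.70, adjusted p = 0.00966, edgeR's quasi-likelihood test with Benjamini-Hochberg adjustment). Sox9-labelled 1 was the highest, and the call held in 1 of 7 fits with a library left out, the fit without control 4, and in the others the adjusted p-values reached 0.0457. The astrocyte marker list, of which *S100b* is a member, summed to lower values in the Sox9-labelled libraries, as given above. The most abundant targets, *Bcl2l1*, a survival gene (568 ± 42.7 against 519 ± 40.5 CPM), and *Myc* (86.8 ± 27.1 against 72.8 ± 12.3 CPM), were not called, with log2 fold changes of -0.13 (SE 0.11) and -0.25 (SE 0.19).

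The 9 called genes of the wider pathway differed in how firmly their calls stood. *Stat5a* and *Socs2* were called in all 15 alternatives run for them. Outside the fits with a library left out, cyclic loess normalization and the fit with replicate numbers of the titles as a block ended the other 7 calls, with adjusted p-values of at least 0.0274 and 0.0124. *S100b* also lost its call among protein-coding genes alone (adjusted p = 0.0105, edgeR), *Osm* with DESeq2 (0.0145), and *Il11*, *Ptpn6* and *S100b* with the replicate numbers of the descriptions as a block. Under the title block the log2 fold changes of the 7 stayed near those reported, for example 2.40 for *Il27ra* and 3.03 for *S100b*. Cyclic loess lowered their log2 fold changes, to 0.65 for *Il11*, 0.89 for *Osm*, 0.80 for *Il6ra*, 1.18 for *Osmr*, 1.22 for *Il27ra*, 0.97 for *Ptpn6* and 0.63 for *S100b*. *Lifr* was called under both (adjusted p = 0.00444 and 0.0055, with limma and edgeR respectively). With a library left out, however, *Lifr* was called in 3 of 7 fits. *Osmr* was called in 6 of 7 and *Il27ra* in 7 of 7. Both passed the filter only through the Sox9-labelled libraries, so their counts are not ranked against that of *Lifr*.

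**Figure D5:**
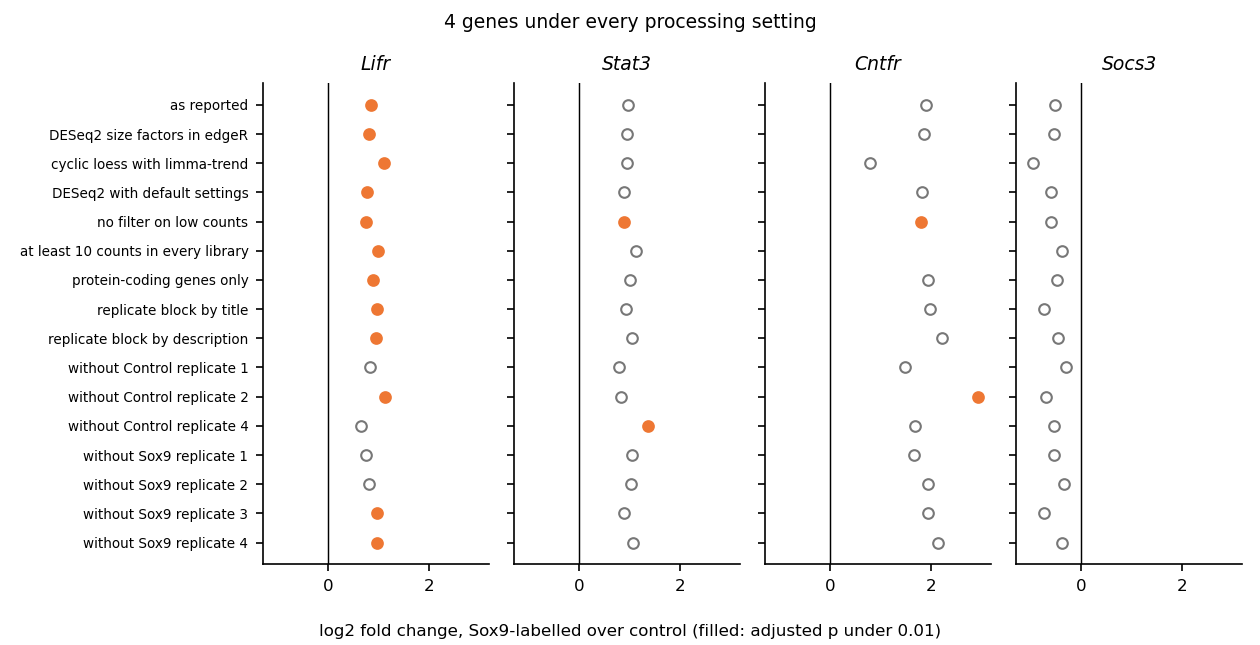
Log2 fold change (Sox9-labelled over control) of *Lifr*, *Stat3*, *Cntfr* and *Socs3* as reported and under 15 other settings (rows), filled where the adjusted p was under 0.01; *Cntfr* did not pass the filter of 10 counts in every library. *Lifr* stays between 0.65 and 1.13, *Stat3* between 0.79 and 1.37, *Cntfr* between 0.78 and 2.94 and *Socs3* below 0.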

How the data were processed

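The authors sequenced polyA RNA of High RFP cells, amplified as cDNA by template switching, with 3 control and 4 Sox9-labelled libraries. Reads were trimmed with cutadapt and aligned to GRCm38 (mm10) with STAR. The submitters' processing notes name bcl2fastq 2.17.1.14 and STAR 2.5.2b. The program that counted reads, and its use of strand and introns, are not given in the sources used here. Whole-number counts for each Ensembl gene were deposited without normalization. A second deposited table of FPKM values was not used here. Groups and replicate numbers follow the titles, which number the controls 1, 2 and 4.

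Of 38124 genes in the count table, 36345 matched a GENCODE symbol and 5641 had no count. Counts were tested over all genes with edgeR 4.0.16 in R 4.3.3 (TMM, filterByExpr at default settings, two-sided quasi-likelihood test, no covariate, Benjamini-Hochberg adjustment over the 16522 genes kept, threshold 0.01). SEs were obtained by dividing the absolute log2 fold change by √F. Marker sums were compared by a two-sided exact permutation test on log2 sums. Alternatives were DESeq2 1.42.0, its size factors, cyclic loess with limma 3.58.1, other filters, a replicate block and leaving out each library. Pairs of replicates of a group differed by more than counting noise (chi-square per gene 7.54 to 20.7), so each counted as 1 sample. The scripts were tested on simulated counts.

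The 9 genes, the 60 further genes and the 9 marker lists were chosen with earlier results of these data known. All 9 genes are given in full. Of the other pathway lists, every called gene and otherwise the 2 most abundant are named, and of each marker list its 2 most abundant genes and any at 0 in every library, of which there was none. Genes that this rule names but the text does not are not reported here. Upstream windows and their sequences came from RefSeq tables of GRCm38.p6, in which all 9 genes were found.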

Additional observations from a re-analysis of the deposited data

Results flagged for a closer look

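In the groups of 4 Sox9-labelled libraries, 18 genes were examined for a single library far from the other 3 (by Dixon's 95% critical value), which chance alone gives in about 1 in 20 groups, and 3 were found. *Stat3* was at 15.8 CPM in Sox9-labelled 3, against 11.7 to 11.9 CPM in the other libraries, all above the highest control. *S100b* was at 3.30 CPM in Sox9-labelled 1, against 1.12 to 1.47 CPM in the others. *Cntf* was at 0.137 CPM in Sox9-labelled 1, a single count, against 0 in the others, which a floor of 3 counts cannot tell apart.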

How the results depend on the processing

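Among the 9 genes, the call of *Lifr* was made under the 8 other settings of normalization, filter, tool and block, and in 3 of 7 fits with a library left out. Over those 7 fits the number of the 9 genes called higher ranged from 0 to 2, and none was called lower in any alternative. Without a filter on low counts, and with a threshold of 0.05, 3 were called higher (*Cntfr*, *Lifr* and *Stat3*). *Il6st* changed sign under cyclic loess (-0.12), with the replicate block by title (-0.01), without control 2 (-0.14) and without Sox9-labelled 2 (-0.05), over a range of -0.14 to 0.33 with a library left out, and *Jak1* with DESeq2 and without a filter (-0.02 in both). *Jak2*, *Stat3*, *Cntfr* and *Socs3* kept their sign wherever they could be fitted.

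Of the 60 further genes, the 9 called higher became 2 under cyclic loess, 3 with at least 10 counts in every library and 4 to 7 with a library left out. The filter of 10 counts left 32 genes to test. The 3 were *Osmr*, *Socs2* and *Stat5a*, and the others of the 9 were removed by it. The 0 called lower became 2 with DESeq2 (*Pias1* and *Pim3*), 4 without a filter (*Fos*, *Pias1*, *Pias3* and *Pim3*) and 3 at a threshold of 0.05 (*Pias1*, *Pias3* and *Pim3*), and 4 of the 43 tested had an unadjusted p under 0.05 in that direction. Over all genes, the 1862 called higher and 567 lower became 363 and 284 under cyclic loess, 1956 and 1252 with DESeq2, 2661 and 1452 without a filter and 638 and 204 with at least 10 counts. With a library left out they ranged from 827 to 1590 and from 208 to 475. The cause was not tested.

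Deviations from the group means correlated at -0.0356, 0.118 and -0.00485 between libraries with the same number in their titles. Pairs with unlike title numbers ran from -0.0954 to 0.0776. The labels do not state a shared litter or sort, and these correlations cannot exclude one, so whether the numbers pair the libraries is not settled. With the title's number as a replicate block, *Lifr* was called (log2 fold change 0.98, adjusted p = 0.0055, edgeR), 2 of the further genes were called higher (*Socs2* and *Stat5a*), and 400 genes were called higher and 218 lower in all. With the number in the descriptions as the block, *Lifr* was at 0.96 (adjusted p = 0.00274, edgeR), 6 further genes were called higher, with *Il11* (adjusted p = 0.0196), *Ptpn6* (0.017) and *S100b* (0.028) losing their calls in edgeR, 1 was called lower (*Fos*), and 1034 genes were called higher and 353 lower in all. Depth limited *Lif* and *Cntf*, which had at most 17 counts in a library.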
